A study of Macaca mulatta with 24 samples.

Results

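Heat shock proteins and their DnaJ co-chaperones were followed through the endometrium of rhesus monkeys in the first days after ovulation. They are the 34 genes whose symbol on the array begins with HSP (HSPG2 aside) or with DNAJA, DNAJB or DNAJC and a number, of 7546 gene symbols in all, with 13 HSP and 21 DNAJ genes among them. Each is read from the brightest of its probes. RNA came from mated cycles with proven conception, at day 2, day 4 and day 6, and from non-mated, normo-ovulatory cycles at day 2, day 4 and day 6, with 4 arrays in each of the 6 groups. The monkeys were of proven fertility, and no allele, agent or age is given. The days are taken to count from ovulation, although the titles and source names of the conception arrays count from fertilization. For 8 non-mated samples the title says day 2 but every other label says day 4 or 6, which was followed. Whether the 4 arrays in a group represent different animals is not stated, and p-values therefore cover the spread among these samples alone, which may be technical.

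HSP70 proteins bind unfolded stretches of other proteins and release them in an ATP cycle. J-domain (DNAJ) proteins deliver the substrates and start ATP hydrolysis, HSP110 proteins exchange the nucleotide, and HSP90 takes over partly folded clients. Steroid hormone receptors, through which oestrogen and progesterone act on the endometrium, are classic clients of this relay. Some of these genes are classed here as switched on by heat shock factor under stress (HSP90AA1, HSPB1, DNAJA1 and HSPA4L). Others are classed as transcribed in most cells at all times (such as HSPA8, the HSC70 protein), or by their place in the endoplasmic reticulum or the mitochondria. The classes are a simplification and may overlap, since a gene placed in another class can also respond to stress.

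The tissue label was checked first. Of the marker genes present on the array, all 5 of epithelium, all 8 of stroma and all 4 of endometrium and hormone receptors passed the filter on low signal. Of 8 smooth muscle markers 6 passed too. Their mean level per array was 0.19 to 4.09 at conception day 2. In the other groups the highest array stood at 1.39 to 1.90. The part of muscle in the values below was not tested. On 21 arrays the share of probes well above background was 53.3% to 71.5%. It was 4.33% on non-mated day 2 replicate 3, 37.9% on non-mated day 4 replicate 1 and 21.8% on non-mated day 4 replicate 2, and these 3 are called weak below. On the first of them the 75th percentile was 23.1 intensity units, against 72.2 to 5421 on the other 23 arrays, so that dim probes stand near -0.28 on it whatever their level elsewhere. Differences that turn sign or move by over 1.5 times when these 3 are left out are therefore given both ways. The 9 slides were scanned on 2 days, and in each conception group replicates 3 and 4 belonged to scan day 1 and replicates 1 and 2 to scan day 2.

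The probes read short stretches of each messenger, and for 4 genes there were more than 1. The last 30 of 60 bases are shown for the probes on which the results below turn, read from the array files, with positions on rheMac2. Capitals mark AATAAA, the canonical polyadenylation signal, which was searched on the probe's strand only.
HSPB1: atacgtttatcttgtttttctcaAATAAAg
HSP90AA1: tgcttaaagttgtaacaaatacagatgagt
HSPA8 (probe used): aacactgtattgtaagtggaaaatgcaatg
HSPA8 (other probe): agagctggagaaagtttgcaaccccatcat
HSPD1: caaagcagagaaatatccaattatgtgaca
HSPA5: tctctttctgaggagctgttcctgaatgtt
HSPB8: tgcttggttgcgttaggacaaaatcctagt
HSPA12B: cgaggcaggcagaggaaccttgtgctgtaa
On the minus strand these lie at chr3:50070418-50070447 (HSPB1), chr7:165369187-165369216 (HSP90AA1), chr14:121410959-121410988 and chr14:121411288-121411317 (HSPA8) and chr12:61103038-61103067 (HSPD1). On the plus strand they lie at chr15:101404959-101404988 (HSPA5), chr11:120184748-120184777 (HSPB8) and chr10:37077820-37077849 (HSPA12B). The files give no exon or UTR for them. AATAAA stood in the probes of 3 of 34 members (8.82%; HSPB1, DNAJC12 and HSPC159) and in 12.8% of all probes. Median GC content was 42.5% for the member probes, with a range of 16.7% to 68.3%, and 41.7% for all probes.

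Of the 34 members, 28 passed the filter, and none of these passed it through 1 group only. Of the 6 others, DNAJB7 and DNAJB8 were well above background on 0 arrays, DNAJC12 and HSPB3 on 2 each, HSPA5 on 6 and DNAJA4 on 8 of 24. HSPA5 encodes BiP, the HSP70 of the endoplasmic reticulum, and its partners DNAJB11 and DNAJC3 were well above background on 22 arrays each. A dim signal from its only probe does not show that the HSPA5 messenger is absent or rare. The HSPA5 levels on the conception arrays of day 2 were -5.30, -4.97, -5.03 and -5.39. Those of day 4 had -5.61, -5.38, -4.97 and -5.58, and those of day 6 had -5.58, -5.35, -4.39 and -5.16, of which only 1 array, at day 2, stood well above background. HSPA1A and HSPA9 are not analysed here. One of the 28, HSPC159, meets the rule by its spelling alone, so the classes below hold 27 genes.

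No member passed the test between conception and non-mated cycles on any day. Of 12053 features, 0 (0%) passed an adjusted p of 0.05 at day 2, 0 (0%) at day 4 and 1 (0.0083%) at day 6 by limma, and none of the 28 members did. At an unadjusted p under 0.05 stood 1 of 28 members at each of the 3 days, against 2.48% of all features at day 2, 6.07% at day 4 and 2.41% at day 6. Averaged over the 3 days, 1 feature passed (0.0083%), 0 members did, and 3 of 28 members stood under an unadjusted 0.05, against 6.66% of all features. The smallest adjusted p among members was 0.79 at day 2, 0.69 at day 4, 1.00 at day 6 and 0.68 for the mean of the days. A difference between 2 groups had a median SE of 0.49 log2 units over the members, and a p that misses the threshold does not show equal levels. There were 0 members whose 4 conception arrays lay all above or all below the 4 non-mated arrays on any day, against 0.581% of features above and 0.846% below at day 2, 1.14% above and 1.29% below at day 4, and 2.58% above and 1.75% below at day 6. Without the weak arrays there were still 0 at day 2 (1.44% of features above, 1.37% below), and 2 members, HSPB1 and DNAJC3, lay above and 0 below at day 4 (7.26% above, 6.79% below), where 2 non-mated arrays are left. The sign alone was above 0 in 18 of 28 members at day 2, 18 at day 4, 13 at day 6 and 16 over the days, against 41.4%, 50.9%, 50% and 45.8% of features. Without the weak arrays it was above 0 in 18 of 28 at day 2, 15 at day 4 and 15 over the days, against 51.8%, 51% and 52.5% of features.

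**Figure D1:**
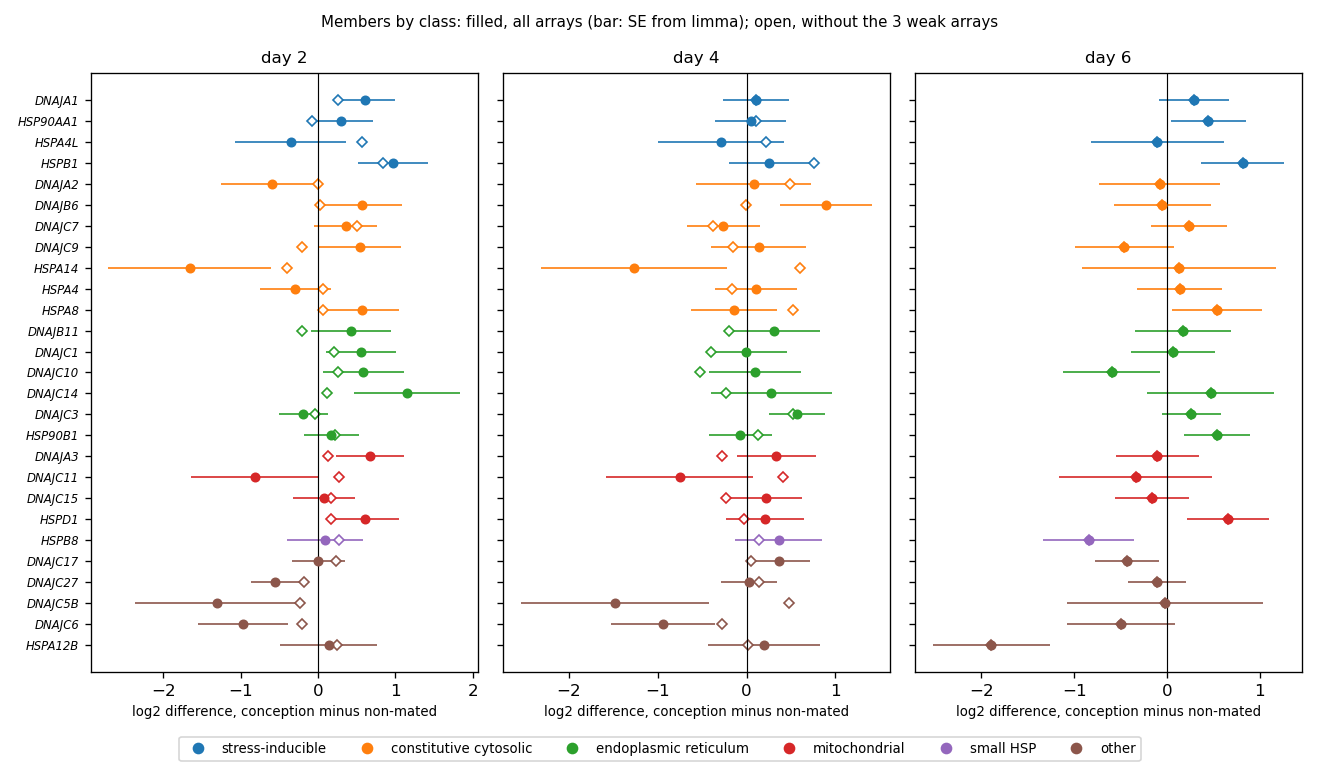
Log2 difference, conception minus non-mated, of the 27 chaperone members that passed the filter (rows, coloured by class) at days 2, 4 and 6. Filled circles use all arrays and carry the SE from limma, and open diamonds leave out the 3 weak arrays; at days 2 and 4 several points move to or across 0 without those arrays, and at day 6, which holds no weak array, both coincide.

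HSPB1, a small heat shock protein also called HSP27 that shields unfolding proteins and the actin skeleton, had the smallest p among stress-inducible members. Its levels, as log2 units above the array's 75th percentile, were 4.84, 4.54, 3.54 and 4.19 at conception day 2, against 3.42, 3.71, 2.91 and 3.21 at non-mated day 2. At day 4 they were 3.91, 3.64, 4.86 and 3.62 in conception cycles and 3.80, 4.72, 3.35 and 3.15 in non-mated cycles. At day 6 they were 4.96, 3.87, 6.11 and 4.92 in conception cycles and 4.42, 3.69, 3.86 and 4.63 in non-mated cycles. The groups overlapped on each day, by 1 conception array at day 2, and conception day 6 replicate 3 was the highest of the 24. The difference was 0.97 ± 0.45 (SE) at day 2, 0.25 ± 0.45 at day 4 and 0.82 ± 0.45 at day 6, and 0.68 ± 0.26 over the days (adjusted p = 0.79, 0.84, 1.00 and 0.68). Without the weak arrays it was 0.83, 0.76, 0.82 and 0.80, the last with an adjusted p of 0.46. With the slide as a block it was 0.32, -0.26 and 0.43 at days 2, 4 and 6. Only slides 1 to 4 held arrays of both cycle types, and at day 4 the non-mated arrays on them were the 2 weak ones. Within a single slide, with 2 conception arrays against 1 non-mated array, it was 0.98 at day 2 (slide 4) and -0.01 at day 6 (slide 1). On scan day 1 the day 6 difference was 1.74 (2 arrays against 2), and on scan day 2 it was -0.11 (2 against 2).

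HSP90AA1, the inducible HSP90 that holds steroid receptors in a hormone-binding state, was well above background on all 24 arrays, from a probe whose description names only a hypothetical locus. At day 6 its levels were 4.61, 5.28, 5.73 and 6.28 in conception cycles, against 4.94 at the lowest and 5.13 at the highest of the 4 non-mated arrays. The non-mated arrays lay close together, while 3 conception arrays lay above all of them and 1, of scan day 2, below all of them. The difference was 0.44 ± 0.40 at day 6 (adjusted p = 1.00), 0.05 ± 0.40 at day 4 and 0.30 ± 0.40 at day 2, or 0.10 and -0.08 at days 4 and 2 without the weak arrays. DNAJA1, a J-domain partner of cytosolic HSP70, had levels of 3.05, 2.80, 4.08 and 4.18 at conception day 6, against 2.86, 3.43, 3.44 and 3.22 at non-mated day 6, with overlap. Its difference was 0.61 ± 0.38 at day 2 (adjusted p = 0.79), or 0.26 without the weak arrays, 0.11 ± 0.38 at day 4 and 0.29 ± 0.38 at day 6. HSPA4L, an HSP110 protein that exchanges nucleotide on HSP70, differed by -0.35 at day 2 with the weak array and by 0.57 without it, and by -0.10 at day 6.

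**Figure D2:**
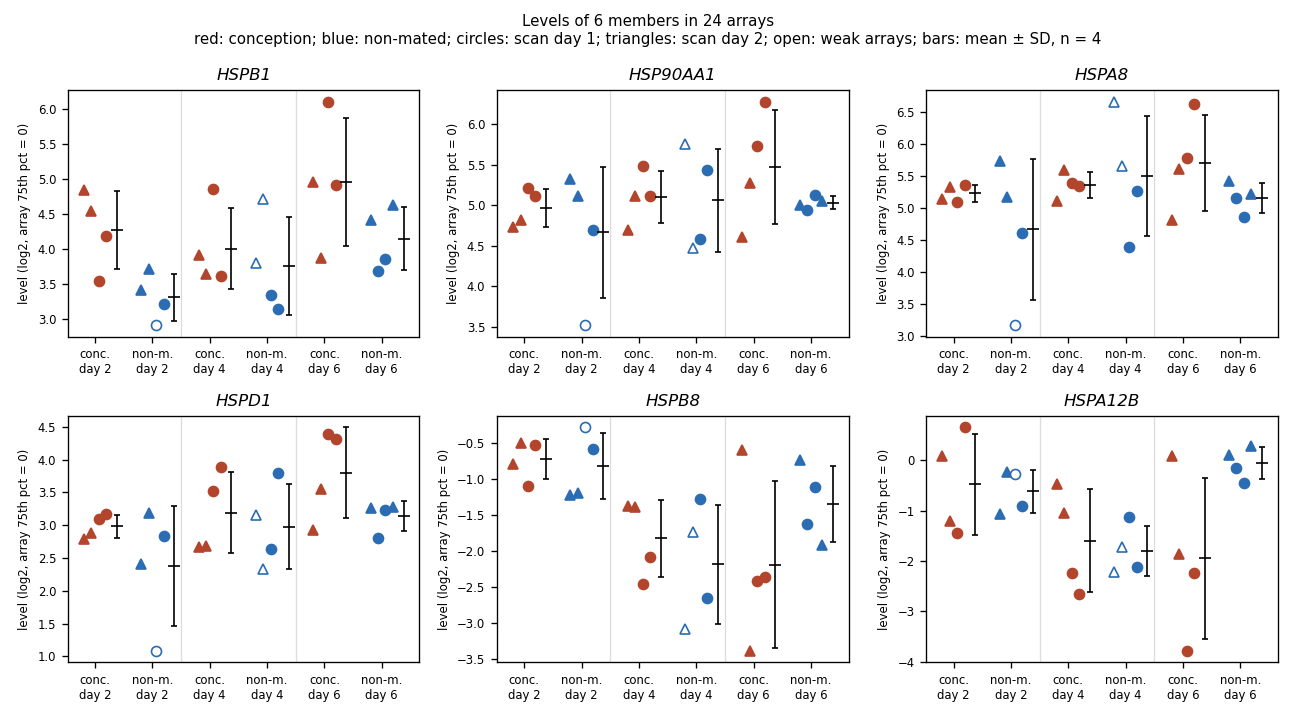
Levels of 6 members on the 24 arrays (y axis, log2 above the 75th percentile of the array; x axis, groups with conception left of non-mated on each day; bars, mean and SD of 4 arrays). Circles are arrays of scan day 1, triangles of scan day 2, and open symbols weak arrays; the highest arrays of HSPB1, HSP90AA1 and HSPD1 and the lowest of HSPB8 and HSPA12B all belong to conception day 6.

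The best known inducible genes carry locus or transcript names on this array and so fall outside the rule. Through their descriptions and gene IDs, 25 further family genes were found, 19 of which passed the filter, and 0 of these passed an adjusted p of 0.05 in any comparison made here. HSPA1B, the major heat-induced HSP70, which shares its sequence with its near-identical copy HSPA1A so that both may contribute, had levels of 3.61, 1.17, 2.18 and 2.36 at conception day 6, against 4.78, 3.93, 3.80 and 2.53 at non-mated day 6. At day 2 they were 2.15, 2.97, 3.44 and 3.66 in conception cycles and 3.01, 1.83, -0.28 and 3.24 in non-mated cycles, the value of -0.28 being that of the weak array. At day 4 they were 3.34, 2.97, 1.52 and 1.91 in conception cycles and 1.84, 1.56, 3.15 and 2.47 in non-mated cycles. The groups overlapped on every day, with 3 of 4 non-mated arrays above all conception arrays at day 6. The difference was -1.43 ± 0.68 at day 6 (adjusted p = 1.00), and 1.11 ± 0.68 at day 2, or 0.36 without the weak array. The day 6 difference was -1.60 on scan day 1 and -1.27 on scan day 2, and the second HSPA1B probe gave -1.24.

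Between day 6 and day 2 HSPA1B differed by 1.81 ± 0.68 in non-mated cycles (adjusted p = 0.77), or 1.07 without the weak array, and by -0.73 ± 0.68 in conception cycles. The other heat-induced genes gave smaller differences at day 6. HSPA6, the HSP70 of primates that is induced only by strong stress, differed by -0.06 ± 0.71 at day 6. At day 4 its levels were -1.81, -1.92, -2.64 and -2.82 in conception cycles, against -3.68, -1.73, -0.21 and -0.84 in non-mated cycles, the first 2 of which are weak arrays. The groups overlapped with the weak arrays and not without them, as for 6.79% of features in that direction. The day 4 difference was -0.68 ± 0.71, or -1.77 without the weak arrays, and -2.21 on scan day 1 (2 arrays against 2). HSPH1, an HSP110, differed by 0.20 ± 0.60, with 3.02 to 4.28 at conception day 6 and 3.25 to 3.56 at non-mated day 6. DNAJB1, the HSP40 partner of inducible HSP70, differed by -0.33 ± 0.53 at day 6, and by 0.85 ± 0.53 at day 2, or 0.16 without the weak array.

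**Figure D3:**
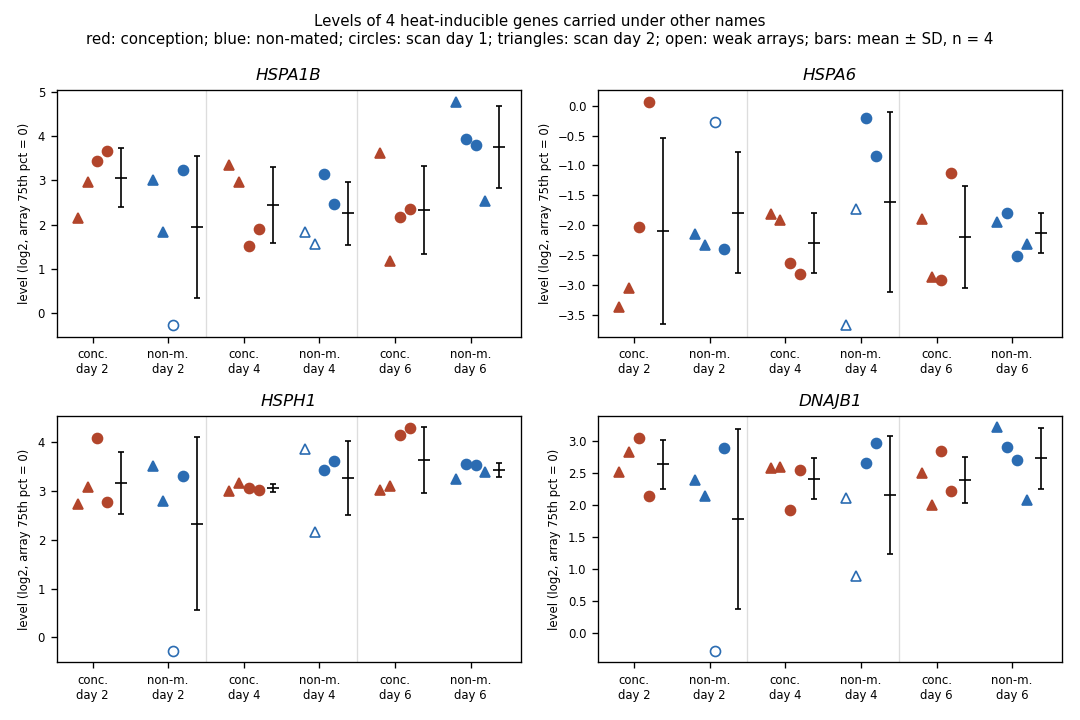
Levels of HSPA1B, HSPA6, HSPH1 and DNAJB1 on the 24 arrays, with axes, symbols and bars as for the 6 members. In HSPA1B 3 of 4 non-mated day 6 arrays lie above all conception day 6 arrays, and in HSPA1B, HSPH1 and DNAJB1 the lowest array is the weak one of non-mated day 2.

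Among the constitutive members, HSPA8, the HSC70 protein, folds nascent chains and uncoats clathrin vesicles. Its levels were 5.13, 5.32, 5.09 and 5.36 at conception day 2, against 5.73, 5.16, 3.16 and 4.60 at non-mated day 2, where 3.16 is the weak array. They were 5.10, 5.59, 5.38 and 5.34 at conception day 4, against 6.66, 5.66, 4.39 and 5.26 at non-mated day 4, where the 2 highest are weak arrays. They were 4.80, 5.60, 5.77 and 6.63 at conception day 6, against 5.42, 5.15, 4.85 and 5.21 at non-mated day 6. The groups overlapped on every day. The difference was 0.56 ± 0.49 at day 2, -0.14 ± 0.49 at day 4 and 0.54 ± 0.49 at day 6 (adjusted p = 0.79, 0.92 and 1.00), or 0.06, 0.53 and 0.54 without the weak arrays. HSP90AB1, the constitutive HSP90, which stands outside the rule, differed by 0.37, 0.15 and 0.48 at days 2, 4 and 6 (SE 0.44), or -0.05 and 0.68 at days 2 and 4 without the weak arrays.

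HSPA4, a constitutive HSP110, is read by a pair of probes with the same 60 bases, which measures how far 2 readings of 1 messenger on 1 array can differ. On the 21 arrays that were not weak the pair differed by at most 0.48. The 2 HSPA8 probes, which lie 269 bases apart, did not behave alike. Among arrays that were not weak, the probe used was above the other by 0.27 to 1.73 on the 11 of scan day 1. It was above by 1.14 to 2.63 on the 10 of scan day 2. On these arrays the other probe alone separated the scan days, at 3.73 to 4.92 on scan day 1 and 2.97 to 3.69 on scan day 2. With the weak arrays it did not, as it stood at 2.47 on the weak array of scan day 1. Its differences between cycle types were 0.77, -0.11 and 0.26 at days 2, 4 and 6, or 0.45 and -0.47 at days 2 and 4 without the weak arrays. The part of the scan day in any HSPA8 difference was not tested.

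**Figure D4:**
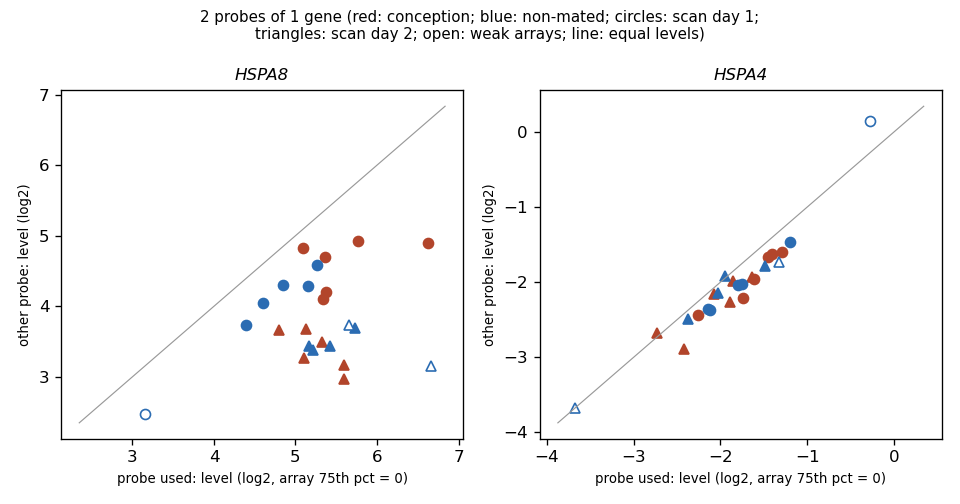
Level on the probe used (x axis) against the level on the gene's other probe (y axis), in log2 units, for HSPA8 and HSPA4 on the 24 arrays. The HSPA4 probes share their sequence and lie near the line of equal levels, mostly below it. Among the arrays that are not weak, the other HSPA8 probe lies higher on those of scan day 1 than on those of scan day 2.

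Several values of the remaining constitutive members rested on weak arrays. DNAJB6, which keeps polyglutamine proteins from aggregating, differed by 0.90 ± 0.52 at day 4 (adjusted p = 0.69) and by -0.00 without the weak arrays, and its second probe gave -0.87 with them and -0.25 without. HSPA14, a ribosome-associated HSP70, differed by -1.66 ± 1.05 at day 2 (adjusted p = 0.79) and by -0.40 without the weak array, on which it stood at 0.87, against -5.20 to -2.84 on the other 3 non-mated arrays. Over the days it differed by -0.93 ± 0.60, or 0.11 without them. HSPA4 differed by -0.30, 0.11 and 0.14 at days 2, 4 and 6 (SE 0.46), the first 2 turning to 0.07 and -0.16 without the weak arrays. DNAJA2, DNAJC7 and DNAJC9, J-domain partners of cytosolic or nuclear chaperones, lay between -0.60 and 0.54 at days 2, 4 and 6. Both ends came from day 2, where DNAJA2 stood at -0.60 and DNAJC9 at 0.54, or -0.01 and -0.20 without the weak array.

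Stress-inducible and constitutive members were then set against each other. At day 6 the median log2 difference, conception minus non-mated, was 0.37 over the 4 inducible members (3 above 0) and 0.13 over the 7 constitutive ones (4 above 0), against 0.00 over all features. The contrast of the 2 medians was thus 0.24 at day 6, and it was 0.10 at day 2 and -0.00 at day 4, or 0.39 and 0.16 without the weak arrays. A contrast can also be taken on each single array, from the median deviation of each class from its genes' means. It had an SD of 0.33 between arrays of a group, with the weak arrays included. On the weak array of non-mated day 2 it stood at -1.35. This SD is the spread of single arrays and not of a difference between group means. Within conception cycles the contrast of the 2 medians was 0.50 between day 6 and day 2. All 4 inducible members lay above 0 (median 0.37), as did 3 of 7 constitutive members (median -0.14). By scan day, 4 of 4 inducible members (median 0.75) and 4 of 7 constitutive ones (median 0.10) lay above 0 on scan day 1, and 1 of 4 (median -0.16) and 2 of 7 (median -0.07) on scan day 2. In non-mated cycles the contrast of the 2 medians was 0.13 between the same days, or 0.66 without the weak array. With the family genes outside the rule added, 9 inducible and 12 constitutive genes gave -0.06 at day 6 between cycle types and 0.25 between day 6 and day 2 of conception cycles.

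The scan day moved with these classes. In conception cycles, 11 of 28 members were higher on scan day 1 in all 3 groups (39.3%), against 20.1% of all features. They were DNAJA1, HSP90AA1, HSPA4L, HSPA8, HSPA4, DNAJC7, HSP90B1, DNAJB11, DNAJC3, DNAJC14 and HSPD1. DNAJC14, whose probe is of uncertain identity, is counted here and among the endoplasmic reticulum members. At day 6 on scan day 1, the conception minus non-mated difference (2 arrays against 2) was above 0 in 4 of 4 inducible, 6 of 7 constitutive and 6 of 6 endoplasmic reticulum members, with medians of 0.83, 0.50 and 0.63. On scan day 2 (2 against 2) it was above 0 in 0 of 4, 1 of 7 and 1 of 6, with medians of -0.11, -0.30 and -0.11. Over the 27 members 17 lay above 0 on scan day 1 and 5 on scan day 2, against 50.5% and 52.4% of all features. On scan day 1 the conception and non-mated arrays lay on different slides, so slide and cycle type cannot be told apart there. The 2 conception day 6 arrays concerned had further marks. Replicate 3 held 616 flagged spots (at most 50 on the others). Replicate 4 had a 75th percentile of 72.2 units, the lowest outside the weak arrays. It was 1 of 6 arrays scanned over a single intensity range, the rest being scanned over an extended one. The others of the 6 had 184 to 296 units. They were conception day 2 replicates 1, 2 and 4, conception day 4 replicate 4 and non-mated day 2 replicate 2. Scan range was thus spread unevenly over cycle types and days. Of the cell marker lists, epithelium and immune cells had array means that did not overlap between cycle types at day 6. Those of stroma, endometrium and hormone receptors, smooth muscle, endothelium and ciliated cells overlapped. The median differences of these were 0.07, -0.14, 0.22, -0.00 and -0.04. How often lists of such sizes separate was not tested. The 5 epithelial markers had a mean level per array of 2.34 to 2.75 in conception cycles and 2.79 to 3.37 in non-mated cycles (2 of 5 above 0, median difference -0.48), and the 4 immune markers measured had -1.86 to -1.62 in conception cycles and -2.44 to -2.01 in non-mated cycles (4 of 4 above 0, median 0.39), with 0 of either list passing. The part of these marks and markers in the result was not tested.

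**Figure D5:**
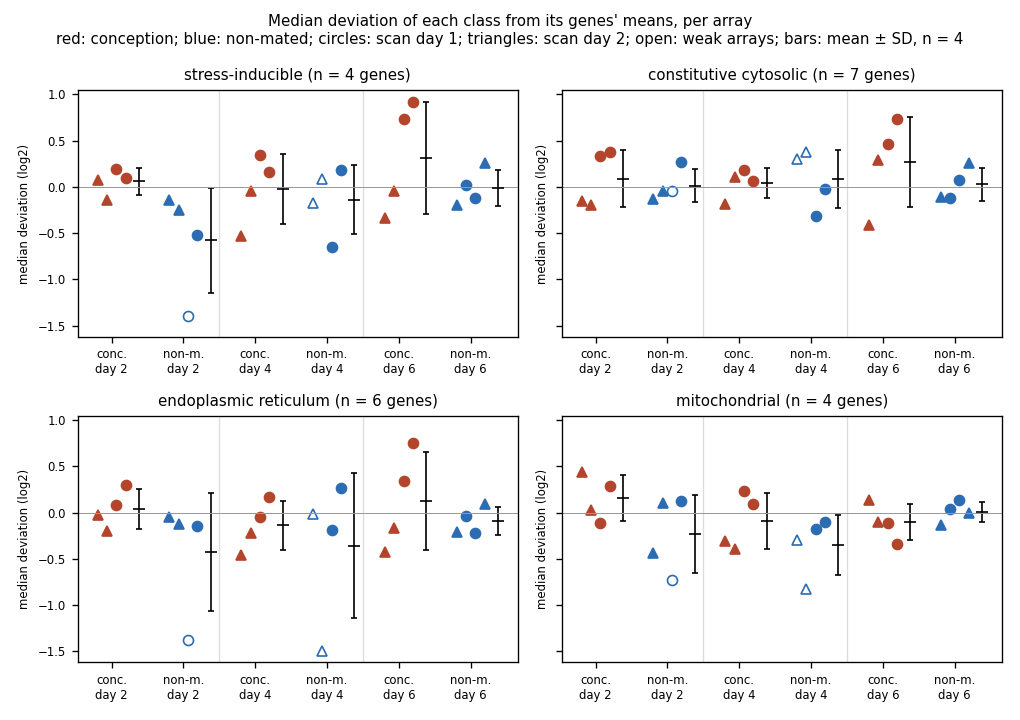
Median deviation of each class from its genes' means over the arrays that are not weak, 1 point per array (y axis, log2 units; x axis, groups with conception left of non-mated on each day; bars, mean and SD of 4 arrays). At conception day 6 the inducible, constitutive and endoplasmic reticulum classes are highest on the 2 arrays of scan day 1, and the lowest points of the inducible, endoplasmic reticulum and mitochondrial classes are weak arrays (open symbols).

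In the endoplasmic reticulum, HSP90B1 or GRP94, the HSP90 of that compartment, was well above background on all arrays. Its levels were 4.34, 4.56, 5.41 and 5.69 at conception day 6, against 4.25, 4.44, 4.40 and 4.73 at non-mated day 6, and the groups overlapped. The difference was 0.54 ± 0.36 at day 6 (adjusted p = 1.00), and 0.17 at day 2 and -0.07 at day 4 (SE 0.36), the last turning to 0.13 without the weak arrays. DNAJC3, a J-domain partner of BiP that also restrains the kinase PERK, differed by 0.57 ± 0.32 at day 4 (adjusted p = 0.69), and by 0.52 without the weak arrays. DNAJB11, the BiP partner ERdj3, differed by 0.43, 0.31 and 0.17 at days 2, 4 and 6 (SE 0.52), the first 2 turning to -0.20 and -0.20 without the weak arrays. DNAJB9 (ERdj4), outside the rule, differed by -0.26, 0.34 and 0.21 at these days (SE 0.37), the day 4 value turning to -0.06 without the weak arrays. DNAJC14 differed by 1.15 ± 0.68 at day 2 and 0.63 ± 0.39 over the days (adjusted p = 0.79 and 0.68), or 0.11 and 0.12 without the weak arrays, and its probe's description names another gene, so its identity is uncertain.

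In the mitochondria, HSPD1, the chaperonin HSP60 of the matrix, had levels of 2.93, 3.55, 4.39 and 4.32 at conception day 6, against 3.26, 2.80, 3.23 and 3.28 at non-mated day 6. Of the conception arrays 3 lay above all non-mated ones, and 1 of scan day 2 among them. The difference was 0.65 ± 0.44 (adjusted p = 1.00), at 1.34 on scan day 1 and -0.03 on scan day 2, and 0.49 ± 0.26 over the days (adjusted p = 0.68), or 0.27 without the weak arrays (adjusted p = 0.82). HSPE1, its lid HSP10, read by a probe of uncertain identity outside the rule, differed by 0.23, 0.52 and 0.35 at days 2, 4 and 6 (SE 0.35), and by -0.00 at day 2 without the weak array. DNAJA3, a J-domain protein that works with the mitochondrial HSP70, differed by 0.67 ± 0.44 at day 2, or 0.13 without the weak array, and by -0.10 at day 6. DNAJC15, a J-domain protein of the import motor, differed by -0.16 at day 6. DNAJC11, of the cristae-organising complex, was well above background on 0 of 4 conception arrays and 3 of 4 non-mated arrays at day 6, so no fold is given. Its levels overlapped there, at -3.60, -4.97, -5.16 and -5.31 in conception cycles and -4.70, -4.62, -4.69 and -3.68 in non-mated cycles. The conception array at -3.60 was the highest of these and still not well above background, so the split does not show a lower level.

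A change over time was looked for within each cycle type, and no member passed the test. Of 12053 features, 0 (0%) passed between day 4 and day 2 of conception cycles, 0 (0%) between day 6 and day 4, 2 (0.0166%) between day 6 and day 2, and 0 (0%) between day 6 and day 2 of non-mated cycles. At an unadjusted p under 0.05 stood 1, 1, 3 and 1 of 28 members in these comparisons, against 2.54%, 0.631%, 4.21% and 3.19% of features. For the interaction of cycle type and day 0 features passed (0%), and 1 of 28 members stood under an unadjusted 0.05, against 2.11% of features. Leaving out the weak arrays narrowed the spread, and between day 6 and day 2 of conception cycles 207 features (1.72%) then passed, with 0 members among them and a smallest member adjusted p of 0.088. The sign was above 0 in 9 of 28 members between day 4 and day 2 of conception cycles (50% of features), 17 between day 6 and day 4 (48.9%), 13 between day 6 and day 2 (48.3%), 15 between day 6 and day 2 of non-mated cycles (39.6%) and 13 for the interaction (54.3%). Without the weak arrays the last 2 counts were 12 (51.6%) and 12 (48.8%). Groups without overlap were found for 1 member below and 0 above between day 4 and day 2 (2.15% and 2.04% of features), and for 1 below and 0 above between day 6 and day 4 (0.581% and 1.67%). In non-mated cycles there were 0 above and 0 below (1.08% and 1.92%), also without the weak array (2.32% and 2.75%).

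HSPB8, the small heat shock protein HSP22 that pairs with BAG3 in selective autophagy, had the smallest p over time. The conception arrays had -0.79, -0.50, -1.09 and -0.52 on day 2. They had -1.37, -1.39, -2.45 and -2.08 on day 4, and -0.60, -3.39, -2.41 and -2.36 on day 6. All day 4 arrays lay below all day 2 arrays, and at day 6 replicate 1 lay among the day 2 arrays while the other 3 lay below them. The non-mated arrays had -1.22, -1.19, -0.28 and -0.58 on day 2. They had -3.08, -1.73, -1.27 and -2.65 on day 4, and -0.74, -1.62, -1.11 and -1.91 on day 6, with overlap between day 6 and day 2. In conception cycles the level differed by -1.10 ± 0.49 between day 4 and day 2 (adjusted p = 1.00) and by -1.47 ± 0.49 between day 6 and day 2 (adjusted p = 1.00, or 0.13 without the weak arrays). Of all features 2.15% likewise had every day 4 array below every day 2 array. With array weights the day 6 against day 2 difference passed the test (adjusted p = 0.0308), 1 of 28 members against 1.68% of features. It was -1.58 on scan day 1 and -1.35 on scan day 2. At day 6 the difference between cycle types was -0.85 ± 0.49, and the interaction of cycle type with day 6 against day 2 was -0.94 ± 0.70 (adjusted p = 0.90). Between day 6 and day 2 of conception cycles the cell markers had median differences of -0.94 (epithelium, 2 of 5 above 0), -0.08 (stroma, 1 of 8) and -0.20 (smooth muscle, 2 of 6). Those of immune cells had 0.13 (3 of 4), of endothelium -0.03 (1 of 3) and of ciliated cells -0.08 (1 of 3). The part of cell types in the values over time was not tested.

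HSPA12B, a distant HSP70 relative of endothelial cells, had the most negative difference of the 28 members at day 6. Its levels were 0.09, -1.86, -3.79 and -2.24 at conception day 6, against 0.10, -0.16, -0.45 and 0.29 at non-mated day 6. At day 2 they were 0.08, -1.21, -1.45 and 0.65 in conception cycles and -1.06, -0.24, -0.28 and -0.90 in non-mated cycles. At day 4 they were -0.47, -1.04, -2.24 and -2.66 in conception cycles and -2.22, -1.73, -1.12 and -2.12 in non-mated cycles. At day 6, 3 conception arrays lay below all non-mated ones and replicate 1 lay among them. The difference was -1.90 ± 0.63 at day 6 (adjusted p = 1.00, or 0.45 without the weak arrays), at -2.71 on scan day 1, -1.08 on scan day 2 and -1.27 with the slide as a block. Between day 6 and day 2 it was -1.47 ± 0.63 in conception cycles and 0.56 ± 0.63 in non-mated cycles, and the interaction was -2.03 ± 0.89 (adjusted p = 0.90).

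The endothelial markers VWF, CDH5 and TEK, the 3 of 6 listed that were on the array, had a mean level per array of -2.12 to -0.92 at conception day 6 and -1.84 to -1.13 at non-mated day 6, and 0 of 3 passed the test, with a median difference of -0.00. The part of endothelial cells in the HSPA12B value was not tested, and in whole tissue fewer cells of a type and less RNA per cell cannot be told apart.

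HSPB6 (HSP20), a small heat shock protein of smooth and striated muscle outside the rule, stood at -1.20, -1.23, -1.80 and -1.66 at conception day 6, against -1.87, -2.30, -1.94 and -1.88 at non-mated day 6. The groups did not overlap, as for 2.58% of features in that direction, but the difference was 0.53 ± 0.93 (adjusted p = 1.00), the SE being that of the fit with the weak arrays, on which HSPB6 reached 3.67. The 6 smooth muscle markers measured had a mean level per array of 0.68 to 1.64 at conception day 6 and 0.54 to 1.67 at non-mated day 6, 5 of 6 lay above 0 with a median difference of 0.22, and 0 passed. Their part in the HSPB6 value was not tested.

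Other members are known for special tasks. DNAJC6, the auxilin that strips clathrin from vesicles, had levels of -3.79, -3.44, -2.95 and -4.04 on the conception arrays of day 2. On those of day 4 it had -4.34, -3.61, -3.25 and -4.28, and on those of day 6 it had -4.59, -4.63, -5.15 and -4.67. It was well above background on 4, 1 and 0 arrays of these groups, and all day 6 arrays lay below all arrays of the earlier days, as for 0.581% of features against day 4. Relative to day 2 it was at least 1.60-fold lower at day 6 in conception cycles (adjusted p = 1.00), where the bound takes for each dim array the higher of its own signal and the lowest signal well above background. This bound compares the means of the arrays measured and does not allow for the spread between arrays. In non-mated cycles the difference between day 6 and day 2 was -1.68 ± 0.58 (adjusted p = 0.77), or -0.92 without the weak array. DNAJC17, a nuclear J-domain protein, differed by -0.87 ± 0.35 between day 6 and day 2 of conception cycles (adjusted p = 1.00, or 0.088 without the weak arrays), at -0.42, -1.26, -1.29 and -0.96 at day 2 and -1.33, -1.68, -2.01 and -2.40 at day 6.

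DNAJC17, DNAJC6 and DNAJC5B, of the cysteine string family, were the 3 members without overlap between day 6 and day 2 of conception cycles, the first pair lower, as for 2.41% of features, and DNAJC5B higher, as for 5.33%. DNAJC5B was well above background on 1 array at day 6 and 3 at day 2. DNAJC27, a small GTPase with a J domain, differed by -0.55 ± 0.31 between cycle types at day 2, or -0.18 without the weak array, and by 0.23 and -0.31 between successive days of conception cycles. HSPC159 differed by -2.04 ± 0.92 at day 4 and -1.32 ± 0.53 over the days, or -0.46 and -0.51 without the weak arrays.

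Among the members at the other end of the comparisons over time in conception cycles, HSPD1 differed by 0.81 ± 0.44 between day 6 and day 2 (1.23 on scan day 1, 0.40 on scan day 2) and by 0.61 ± 0.44 between day 6 and day 4. HSPB1 differed by 0.96 ± 0.45 between day 6 and day 4, with 1.28 on scan day 1 and 0.64 on scan day 2, and by 0.69 ± 0.45 between day 6 and day 2, with 1.65 and -0.28. HSP90AA1 differed by 0.50 ± 0.40 between day 6 and day 2, and HSP90B1 by 0.46 ± 0.36 between day 6 and day 4. DNAJC15 differed by -0.80 ± 0.40 between day 4 and day 2, and DNAJC9 by -0.43 ± 0.53 between day 6 and day 4. In non-mated cycles, day 6 against day 2, HSPB1 differed by 0.84 ± 0.45 and HSPD1 by 0.76 ± 0.44, or 0.70 and 0.33 without the weak array. DNAJA3 (0.67, or 0.13 without it) and DNAJC3 (-0.42, or -0.28) were also among those named by the smallest p. For the interaction, DNAJC10, a disulfide reductase of the endoplasmic reticulum, stood at -1.18 ± 0.74, HSPA14 at 1.78 ± 1.48, DNAJC3 at 0.45 ± 0.45 and DNAJC27 at 0.45 ± 0.44, with adjusted p = 0.90 for each. Without the weak arrays they stood at -0.86, 0.53, 0.31 and 0.076.

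The wider chaperone system gave no call. Of 26 heat shock factors and co-chaperones 17 were measured, and 0 passed in either direction in the 9 comparisons, with 13 of 17 above 0 at day 6 between cycle types and a median of 0.10. Of 20 genes of the unfolded protein response 9 were measured, 0 passed, and the median was 0.08 at day 6 (5 of 9 above 0), while ERN1 and SEL1L were well above background on 0 arrays. Of 14 genes of mitochondrial folding and import 7 were measured, 0 passed, and the median was 0.09 at day 6 (4 of 7 above 0). At day 2 the 3 medians were 0.27, 0.47 and 0.30, or 0.13, 0.31 and 0.00 without the weak array, against -0.15 and 0.02 over all features.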

How the data were processed

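Endometrial RNA of 24 samples was measured on Agilent 1-colour arrays of 20217 probes with 2 spots each. The deposited scanner files give a linear fluorescence intensity per spot, background-corrected by Agilent Feature Extraction, as version 9.5.3.1 per the file headers and 10.7.3.1 per the submitters' processing notes. The authors also deposited a table of log2 values with no stated baseline, used here as 1 of the alternatives. Per the file headers, probe positions refer to the rheMac2 build. Control spots and spots flagged as outliers were left out, and the remaining spots of a probe were averaged. A level is the log2 intensity minus the 75th percentile of its array. Probes were kept where 3 or more of the 4 arrays in any group had them well above background, and the brightest probe by mean stood for a gene, which left 12053 features.

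The 6 group means were fitted with limma 3.58.1 (R 4.3.3, lmFit and eBayes, 18 residual degrees of freedom), p-values were two-sided and adjusted by the Benjamini-Hochberg method over all features, and the threshold was 0.05. Every p-value, adjusted p and SE in the text comes from such limma fits. Members without a call in a comparison are named by a rule, as the 3 with the smallest p in each direction, beside a fixed list of 22 canonical chaperones. The members, classes and lists were chosen with earlier results of these data known. Alternatives were quantile normalization, normexp background correction with an offset of 50 followed by quantile normalization, no filter, a filter on all 4 arrays of a group, the authors' value table, the mean of a gene's probes, array weights, the 3 weak arrays left out, each array left out, and slide, scan day or replicate number as a block. Because neither the labels nor the correlations between arrays paired arrays across groups by replicate number, no block was used in the fit reported. The fit was tested on simulated data. Gene symbols came from the files, or for 25 further family genes from their descriptions and gene IDs matched to a RefSeq gene table of the T2T-MMU8v2.0 assembly used for names only. Files were read with pandas 2.3.3 and numpy 2.4.6 under Python 3.11.15, and figures were made with matplotlib 3.10.9.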

Additional observations from a re-analysis of the deposited data

Results flagged for a closer look

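In 186 sets of 4 arrays (a gene in a group), 16 held 1 array that stood apart from the other 3 by Dixon's criterion, where chance gives about 1 in 20, or 9.3. Of the 16, 7 were weak arrays. On non-mated day 2 replicate 3, DNAJB11, DNAJC11, DNAJC14 and DNAJC9 each stood at -0.28, HSPA4L at -0.04 and HSPC159 at 0.79, and on non-mated day 4 replicate 1 DNAJC17 stood at -2.87.

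The other 9 lay on arrays that were not weak. In conception cycles these were HSPA4L at -3.78 (day 2 replicate 2) and HSPA14 at -3.76 (day 2 replicate 4). At day 4 they were HSPA4L at -4.92 (replicate 1), DNAJC7 at 1.76 (replicate 2) and DNAJB1, outside the rule, at 1.93 (replicate 3), and at day 6 DNAJC6 at -5.15 (replicate 3). In non-mated cycles they were, all at day 6, HSPD1 at 2.80 (replicate 2), DNAJB6 at 1.92 (replicate 4) and DNAJC11 at -3.68 (replicate 4).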

How the results depend on the processing

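The count of members past an adjusted p of 0.05 was 0 in the 9 comparisons and stayed 0 in 98 refits with another setting, the 1 exception being array weights between day 6 and day 2 of conception cycles (1, HSPB8). It was 0 to 0 when single arrays were left out. The contrast of inducible with constitutive medians moved by more than the spread between arrays without the filter, to 1.06 at day 2, 0.34 at day 4, -0.071 between day 6 and day 2 of conception cycles, 1.30 between those days of non-mated cycles and -0.52 for the interaction. In non-mated cycles it moved to 0.51 with array weights, 0.47 with the slide as a block and 0.66 without the weak arrays. Without the filter the constitutive class held 11 genes. Among them were DNAJA4, DNAJB7, DNAJB8 and DNAJC12, which were well above background on 8, 0, 0 and 2 arrays. The cause of these shifts was not tested. Members whose groups did not overlap numbered 2 at day 4 without the weak arrays (both higher, as for 7.26% of features), 2 between day 4 and day 2 of conception cycles with the mean of probes or no filter, 0 between day 6 and day 4 with quantile normalization, alone or after normexp, and 1 between day 6 and day 2 after normexp and quantile normalization. Apart from the first, these counts are given without the share of all features and are not read as results about the members.

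With single arrays left out, these numbers ranged from 0 to 3 at day 2, 0 to 1 at day 4, 0 to 8 at day 6, 1 to 3 (day 4 against day 2), 1 to 4 (day 6 against day 4) and 3 to 10 (day 6 against day 2) in conception cycles, and 0 to 3 in non-mated cycles, where fewer arrays overlap less by construction. These ranges too come without the share of all features, so they show the effect of dropping an array and nothing particular to the members. The contrast ranged from 0.034 to 0.58 at day 2, -0.03 to 0.20 at day 4, 0.12 to 0.51 at day 6 and 0.07 to 0.35 over the days. In conception cycles it ranged from -0.39 to 0.12 (day 4 against day 2), 0.14 to 0.44 (day 6 against day 4) and 0.28 to 0.60 (day 6 against day 2), in non-mated cycles from -0.016 to 0.66, and for the interaction from -0.28 to 0.20. Adding the family genes outside the rule was chosen after seeing the data.

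Deviations of arrays with the same replicate number had a median correlation of 0.02 (60 pairs), and those with different numbers -0.01 (180 pairs). Neither the labels nor these correlations, at -0.67 to 0.63 for the same number, pair arrays across groups. In conception cycles replicate 3 lay on slide 7 and replicate 4 on slide 8 on all 3 days, and these 6 pairs on a shared slide had correlations of -0.14 to 0.46 (median 0.13), so there the number stands for a slide, which was used as a block of its own. With the replicate number as a block 0 members passed, and the contrast stayed at 0.24 at day 6. Signal limits the weak arrays, where dim members have no order.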
